A study of Mus musculus with 32 samples.

Results

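Chemokines are small secreted proteins that steer moving cells, and chemokine receptors are the G protein coupled receptors on those cells that read them. The genes described here were the members of this family on a mouse expression array, chosen by name: every gene whose symbol starts with Ccl, Ccr, Cxcl, Cxcr, Xcl, Xcr, Cx3cl or Cx3cr followed by a number and that had a probe set of its own. They were 52 of the 19938 genes with such a probe set, and comprised 34 ligands and 18 receptors. Where a gene had more than 1 probe set, as Ccl19 and Ccl25 did, the brightest over all arrays was used, and 7 probe sets shared by near-identical copies of Ccl21 and Ccl27 were left out.

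The arrays came from peripheral blood and cerebellum of the same mice in a pair of experiments that asked whether 2 single-gene models of autism spectrum disorder change gene expression alike. In the Fmr1 experiment, 5 Fmr1 knockout mice (Fmr1-KO), which lack the RNA-binding protein absent in fragile X syndrome, were set against 5 wild-type (WT) mice, all on a C57BL/6 congenic background. In the Tsc2 experiment, 3 Tsc2+/- mice, which carry 1 working copy of a gene mutated in tuberous sclerosis complex, were set against 3 WT mice on a mixed 129/SvJae-C57BL/6J background. The labels give no treatment. All mice were killed at 8 to 10 weeks of age, the deletion or the lost copy was present in every cell, and the Tsc2+/- mice still had 1 allele because loss of both is lethal in the embryo. Strain and experiment cannot be told apart where the 2 sets of WT mice are compared, and p-values measure only the spread between these mice.

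Ligands fall into classes by the spacing of their first cysteines (CC, CXC, XC and CX3C), and most receptors bind several ligands of one class. Some members act all the time in healthy tissue, such as Cxcl12, which retains blood cell precursors and guides migrating neurons through Cxcr4, and Cx3cl1, a membrane-bound chemokine of neurons that microglia read through Cx3cr1. Others are made on demand by inflamed tissue, such as Cxcl9, Cxcl10 and Ccl2. Receptors sort white blood cells: Ccr7 and Cxcr5 direct lymphocytes into lymph nodes and follicles, Cxcr2 is the neutrophil receptor, and Ccr2 is carried by monocytes that leave the marrow.

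Several arrays stood apart from the rest. Fmr1 was lower in Fmr1-KO mice (169 to 263 in blood and 142 to 306 in cerebellum) than in their WT mice (335 to 659.8 and 832 to 917), and Tsc2 was lower in Tsc2+/- cerebellum (713 to 999.5 against 1110 to 1176), while in blood the Tsc2 values overlapped (621 to 889.8 against 731 to 1008). Xist, which is expressed in female cells, was below background on all 32 arrays. The labels call the mice female, whereas the paper's methods describe male mice, and the Xist values go with male mice. In the Tsc2 experiment, Alb, the liver gene for serum albumin, read 14018 to 112421 on 5 of 6 blood arrays, against 102 on the array of WT mouse 1 and 61.4 to 153 in Fmr1 experiment blood, and also 12106 in the cerebellum of Tsc2+/- mouse 2. The thymocyte gene Rag1 read 1523, 793 and 6851 in blood of Tsc2+/- mouse 2 and WT mice 2 and 3, against at most 113 in Fmr1 experiment blood. Prg4, a gene of macrophages of the body cavities, was high (1825 to 12111) on the same 5 arrays as Alb, and the platelet gene Gp9 was low in Tsc2+/- mouse 2 (344) and WT mouse 3 (240.5) against 7967 or more in Fmr1 experiment blood. The cerebellum array of Fmr1-KO mouse 1 had a background of 577 against 271 or less on the other cerebellum arrays, and correlated least with its group (r = 0.882 across probe sets, against 0.935 or more). Values without these arrays are given where a result rests on them and a fit could be made.

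In all, 26 of the 52 members lay near background in both tissues. The background of an array was taken as the 95th percentile of its 1035 olfactory receptor probe sets, genes with hardly any expression in blood or brain, which was 165 to 276 over the blood arrays and 136 to 577 over those of cerebellum. A member counted as near background in a tissue when it lay at or under that level on more than 8 of the 16 arrays. In blood 22 members were above background, 12 of 18 receptors but only 10 of 34 ligands. The receptors were Ccr1, Ccr2, Ccr3, Ccr6, Ccr7, Ccr9, Cx3cr1 and Cxcr1 to Cxcr5, and the ligands were Ccl2, Ccl3, Ccl4, Ccl5, Ccl6, Ccl9, Ccl19, Cxcl1, Cxcl3 and Xcl1. In cerebellum 10 members were above background, and Cx3cr1 was the only receptor among them. The 9 ligands were Ccl2, Ccl4, Ccl19, Cx3cl1, Cxcl1, Cxcl3, Cxcl12, Cxcl14 and Cxcl17. Of these, Ccl2, Ccl4, Ccl19, Cx3cr1, Cxcl1 and Cxcl3 were above background in both tissues. Ccl19 and Xcl1 passed on 8 of 16 blood arrays, the fewest that counted, while Cxcr6 (7 arrays) and Cxcl17 (6 arrays) lay just short.

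The 26 members near background in both tissues included the inducible ligands of several routes. They were Ccl1, Ccl7, Ccl8, Ccl11, Ccl12, Ccl17, Ccl20, Ccl22, Ccl24, Ccl25, Ccl26, Ccl28, Cxcl2, Cxcl5, Cxcl9, Cxcl10, Cxcl11, Cxcl13, Cxcl15 and Cxcl16, and the receptors Ccr1l1, Ccr4, Ccr8, Ccr10, Cxcr6 and Xcr1. Of them, 14 were not above background on any of the 32 arrays, among them the interferon-induced ligand Cxcl9 and the eosinophil attractant Ccl11. The count depends on the yardstick: in blood 30 members were near background, and 16 were with the vomeronasal receptor probe sets in place of the olfactory ones. In cerebellum the same change took 42 to 28, so that 24 in place of 10 were above background. A stricter background level gave 36 near background in blood and 46 in cerebellum. Cxcr6, a receptor of activated T cells and NKT cells, was split by experiment, above background on all 6 Tsc2 experiment blood arrays and on 1 of 10 of the Fmr1 experiment.

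**Figure D1:**
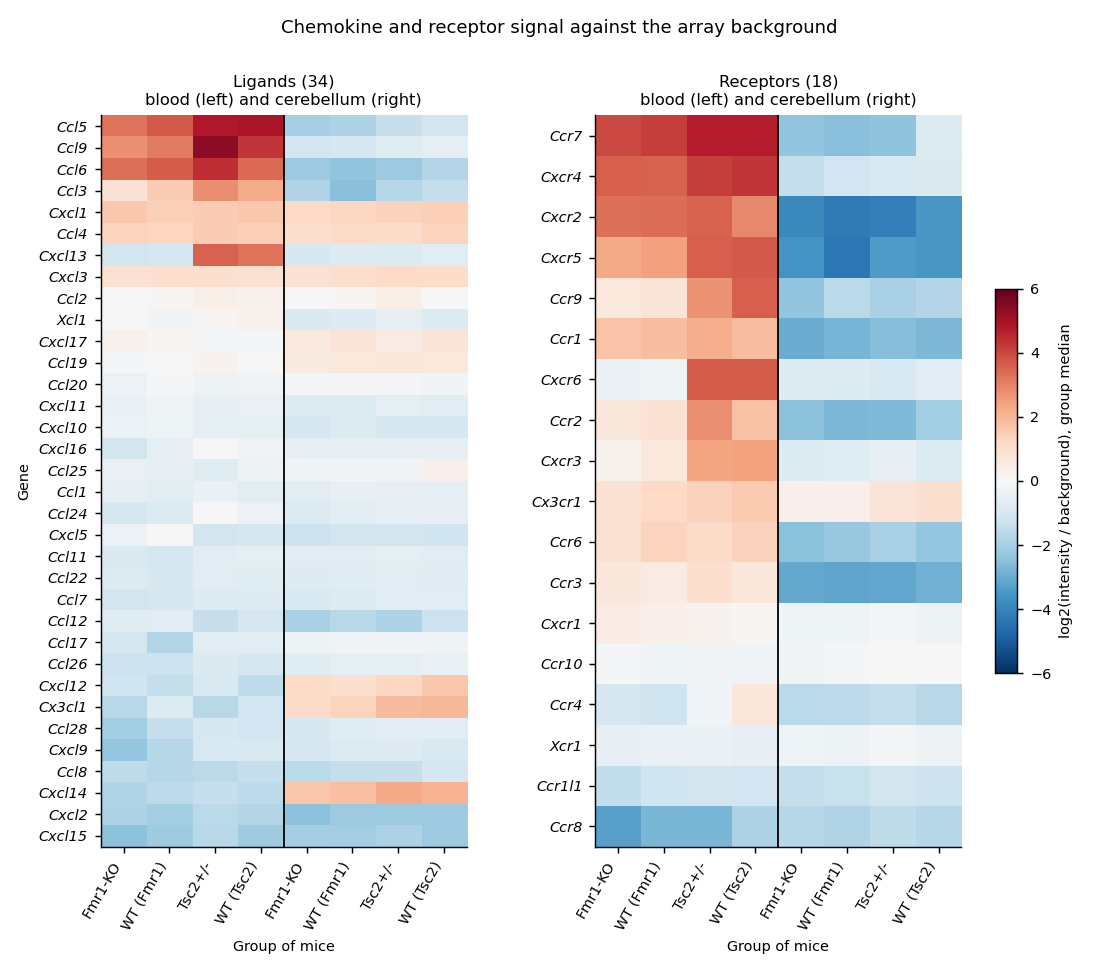
Median log2 ratio of intensity to array background in each of the 8 groups for the 34 ligands (left) and 18 receptors (right), ordered by their level in blood. Red lies above and blue below background: most receptors are red in blood and blue in cerebellum, while Cxcl12, Cx3cl1 and Cxcl14 show the opposite pattern, and Cxcl13 and Cxcr6 are red only in blood of the Tsc2 experiment.

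The sequences upstream of these genes are shown for 3 ligands that were higher in cerebellum (Cxcl12, Cx3cl1, Cxcl14), for a pair of receptors higher in blood in both experiments (Cxcr4, Cxcr2) and for the receptor that differed most between the WT mice (Cxcr6), because their content of CG dinucleotides differed widely. Each is the 250 bases before the RefSeq gene start in GRCm38.p6, read 5′ to 3′ in the direction of the gene, with every CG in capitals.
Cxcl12 (chr6:117168285-117168534, plus strand): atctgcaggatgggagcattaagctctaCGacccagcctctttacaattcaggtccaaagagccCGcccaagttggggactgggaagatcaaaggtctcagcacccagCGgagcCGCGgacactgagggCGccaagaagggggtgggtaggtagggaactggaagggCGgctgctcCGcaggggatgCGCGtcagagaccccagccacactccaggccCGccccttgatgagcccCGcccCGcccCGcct
Cx3cl1 (chr8:94771930-94772179, plus strand): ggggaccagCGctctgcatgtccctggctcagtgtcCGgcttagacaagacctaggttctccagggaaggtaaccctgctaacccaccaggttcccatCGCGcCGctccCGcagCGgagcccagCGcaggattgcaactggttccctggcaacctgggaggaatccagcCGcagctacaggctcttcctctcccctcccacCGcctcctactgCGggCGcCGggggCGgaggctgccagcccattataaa
Cxcl14 (chr13:56296552-56296801, minus strand): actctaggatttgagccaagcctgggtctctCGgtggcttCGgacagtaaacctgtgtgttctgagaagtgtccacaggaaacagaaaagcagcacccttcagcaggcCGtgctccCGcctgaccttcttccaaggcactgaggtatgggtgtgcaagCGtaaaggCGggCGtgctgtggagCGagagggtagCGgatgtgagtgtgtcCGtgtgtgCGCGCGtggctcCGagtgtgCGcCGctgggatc
Cxcr4 (chr1:128592300-128592549, minus strand): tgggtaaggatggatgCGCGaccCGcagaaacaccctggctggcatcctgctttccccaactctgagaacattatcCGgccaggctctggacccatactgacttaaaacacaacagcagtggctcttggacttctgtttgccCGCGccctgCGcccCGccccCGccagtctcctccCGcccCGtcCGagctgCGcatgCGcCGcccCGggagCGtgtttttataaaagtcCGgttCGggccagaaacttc
Cxcr2 (chr1:74153744-74153993, plus strand): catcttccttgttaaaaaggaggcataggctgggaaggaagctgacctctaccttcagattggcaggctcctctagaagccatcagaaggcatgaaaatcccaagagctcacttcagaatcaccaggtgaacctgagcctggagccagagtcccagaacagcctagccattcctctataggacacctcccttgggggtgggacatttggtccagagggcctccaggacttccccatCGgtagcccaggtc
Cxcr6 (chr9:123806227-123806476, plus strand): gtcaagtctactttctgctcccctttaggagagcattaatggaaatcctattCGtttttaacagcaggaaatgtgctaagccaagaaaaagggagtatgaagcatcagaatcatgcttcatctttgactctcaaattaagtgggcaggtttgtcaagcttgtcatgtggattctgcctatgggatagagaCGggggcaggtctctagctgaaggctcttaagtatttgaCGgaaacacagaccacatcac
Cxcl12 and Cx3cl1 had 14 CG each, Cxcl14 had 16 and Cxcr4 had 19, whereas Cxcr2 had 1 and Cxcr6 had 3. The motif is the same on both strands. Of 27025 genes in the promoter table, 49.5% had 5 or fewer CG in this window, against 14 of the 15 receptors listed there (Cxcr4 was the exception) and 14 of 23 ligands. Among the 4 listed ligands that were higher in cerebellum in both experiments the count ran from 9 to 16, and among the 17 listed members higher in blood in both it ran from 0 to 19 with a median of 2. In all 38 of 52 members were matched. These counts describe the letters of the reference and were set against no measure of binding or methylation.

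Between tissues, most receptors were higher in blood, while ligands went both ways. In the Fmr1 experiment 24 members were higher in blood (adjusted p under 0.05 over all 35556 probe sets by limma, which called 20% of all probe sets in this direction) and 13 were higher in cerebellum (51.8% of all). In the Tsc2 experiment the counts were 24 (26.4% of all) and 6 (31% of all). Of the 18 receptors, 14 (Fmr1 experiment) and 13 (Tsc2 experiment) were higher in blood, and only Ccr8, near background in both tissues, was higher in cerebellum, in the Fmr1 experiment. Of the 34 ligands, 10 were higher in blood and 12 in cerebellum there, against 11 and 6 in the mice of the Tsc2 experiment. Of the 12, Ccl7, Ccl11, Ccl17, Ccl26, Ccl28, Cxcl9 and Cxcl16 were near background in both tissues. So were Ccl12, Cxcl5, Cxcl10 and Cxcl11 of the 10. In the Tsc2 experiment so were Ccl12, Ccl24, Cxcl2, Cxcl10 and Cxcl13 of the 11, and Ccl25 of the 6. Without dim probe sets, the 13 members higher in cerebellum in the Fmr1 experiment fell to 5. The median log2 difference (blood minus cerebellum) over the receptors was 1.82 and 3.70 in the Fmr1 and Tsc2 experiments, over the ligands -0.16 and 0.14, and over all probe sets -0.52 and -0.03. In bulk tissue, fewer cells of a type and less RNA per cell cannot be told apart. Both experiments called 20 members higher in blood and 5 higher in cerebellum. On 14 members every blood array was brighter than every cerebellum array over all 32 (8.16% of all probe sets), and on 3 members, Cx3cl1, Cxcl12 and Cxcl14, every cerebellum array was brighter (15.9%).

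**Figure D2:**
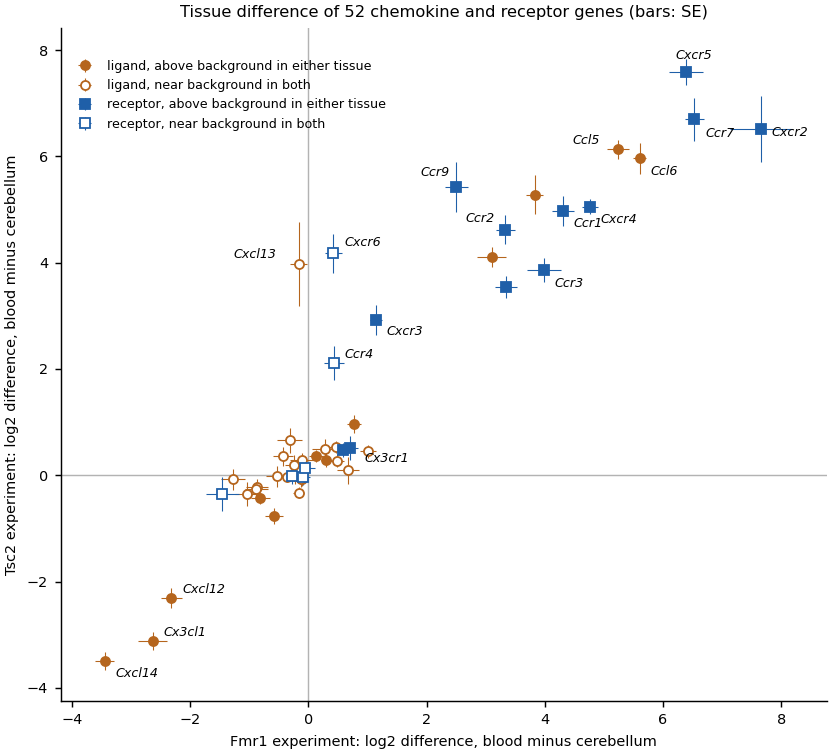
Log2 difference between blood and cerebellum of each member in the Fmr1 experiment (x axis, 10 mice) and the Tsc2 experiment (y axis, 6 mice), with standard errors as bars, receptors as squares and ligands as circles, open where the member was near background in both tissues. Receptors fill the upper right, Cxcl14, Cx3cl1 and Cxcl12 the lower left, and Cxcl13, Cxcr6, Ccr9 and Ccr4 lie above the others at the same x value.

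Ccr7 had the largest lower bound on its excess in blood of all members in both experiments. This receptor, which brings T cells and dendritic cells into lymph nodes, read 2684 to 4187 in Fmr1 experiment blood (median 3369) and 16.7 to 58.3 in cerebellum (median 37.9). Over the Tsc2 experiment it read 3833 to 6030.2 in blood (median 4926) and 14.7 to 87.8 in cerebellum (median 56.3). No cerebellum array reached background, so the difference is a lower bound: blood was at least 15.2-fold higher for the Fmr1 experiment (fitted log2 difference 6.53 ± 0.17 SE, adjusted p = 3.2e-17) and at least 29.4-fold for the Tsc2 experiment (6.70 ± 0.40, adjusted p = 5.4e-08). Such bounds set each cerebellum array at its own background. Cxcr5, the receptor that takes B cells into follicles, read 865 to 1554 in blood (median 1107) and 3.86 to 48.5 in cerebellum (median 14.4) in the Fmr1 experiment. The Tsc2 experiment gave 1549 to 4569 in blood (median 2286) and 8.75 to 17.3 in cerebellum (median 12.8). Blood was thus at least 5.01-fold and 14.5-fold higher (log2 6.39 ± 0.29, adjusted p = 1.9e-13, and 7.59 ± 0.24, adjusted p = 3.7e-10).

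Cxcr2, the main receptor of neutrophils, was above background on all 16 blood arrays and on no cerebellum array. In the Fmr1 experiment it read 1357 to 2921 in blood (median 2033) and 0.63 to 39.8 in cerebellum (median 12.3), at least 8.76-fold higher in blood (log2 7.66 ± 0.52, adjusted p = 9.9e-11). Its blood values in the Tsc2 experiment spread from 267 to 3849 around a median of 1629.7, with Tsc2+/- mouse 2 (365) and WT mouse 3 (267) far below the other 4 mice (1281 or more). The same mice had the lowest Gp9, and WT mouse 3 had the highest Rag1. The part of these in the low Cxcr2 was not tested. Cerebellum stayed at 8.27 to 18.6 and the difference was 6.52 ± 0.62 (adjusted p = 3.0e-06). Without the 5 blood arrays with high Alb, which left 1 blood array, the difference was 7.23. Summed neutrophil markers (7 genes) read 8917 to 23474 over the Fmr1 experiment WT blood arrays and 5040 to 11875 over those of the Tsc2 experiment. Tsc2+/- mouse 2 (2941) and WT mouse 3 (5040) had the lowest sums of all 16 blood arrays. The part of these sums in the low Cxcr2 was not tested either.

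The other receptors of myeloid and lymphoid cells ran the same way. In the Fmr1 experiment blood was higher by at least 2.74-fold for Ccr1 (neutrophils, monocytes), 1.56-fold for Ccr2, 1.51-fold for Ccr3 (eosinophils), 2.01-fold for Ccr6 (B cells and Th17 cells) and 1.34-fold for Ccr9 (gut-homing T cells). The same bounds in the Tsc2 experiment were 5.17, 4.76, 1.84, 2.59 and 11.7-fold. All 5 passed the test in both experiments. Cxcr3 was at least 1.21-fold and 4.85-fold higher, and Cxcr1, another receptor of neutrophils, 1.23-fold and 1.22-fold, and both passed as well. For Cxcr1 the tissues overlapped in both experiments. Blood read 216 to 323 against 135 to 386 in cerebellum (Fmr1 experiment), and 174 to 227 against 103 to 177 (Tsc2 experiment). In the Tsc2 experiment 4 of 6 blood arrays were above background for Cxcr1, so its 1.22-fold is not a strict bound. The microglial and monocyte receptor Cx3cr1 was the only receptor called in 1 experiment alone among those above background.

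Among ligands, 4 CC chemokines of leukocytes were much brighter in blood. Ccl5, made by T cells and NK cells, read 1702 to 3361 in Fmr1 experiment blood (median 2354) and 40.4 to 131 in cerebellum (median 56.9). Tsc2 experiment values were 3218 to 6986 in blood (median 4882) and 55.3 to 75.7 in cerebellum (median 68.2). The bounds were 10.3-fold and 28.6-fold (log2 5.24 ± 0.19, adjusted p = 5.6e-15, and 6.13 ± 0.18, adjusted p = 2.1e-10). Ccl6, a rodent chemokine of myeloid cells, read 1815 to 2712 in Fmr1 experiment blood (median 2313) against 36.9 to 59.3 in cerebellum (median 44.4), at least 9.93-fold (log2 5.60 ± 0.10, adjusted p = 3.6e-19). In the Tsc2 experiment it read 1791 to 4795 (median 2303) against 29.0 to 70.3 (median 41.9), at least 16.2-fold (log2 5.96 ± 0.29, adjusted p = 8.6e-09). Ccl9, its neighbour and relative, was at least 7.13-fold and 23.6-fold higher, and Ccl3, an early product of activated macrophages and lymphocytes, at least 2.00-fold and 5.58-fold. In contrast Ccl4, the usual partner of Ccl3, read 442 to 681 in Fmr1 experiment blood and 338 to 684 in cerebellum and was not called there (log2 0.13, adjusted p = 0.31), and was 1.29-fold higher in Tsc2 experiment blood (log2 0.37, adjusted p = 0.015). The neutrophil attractants Cxcl1 and Cxcl3 and the monocyte attractant Ccl2 were likewise of like brightness in both tissues, with log2 differences between -0.15 and 0.30 in either experiment, and only Cxcl1 was called (0.30, adjusted p = 0.010, Fmr1 experiment).

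Cerebellum was brighter for 5 ligands in both experiments, of which 3 had no overlap with blood. Cxcl14, a chemokine of epithelia and interneurons, read 536 to 982 in Fmr1 experiment cerebellum (median 686) and 33.1 to 86.3 in blood (median 65.5). Tsc2 experiment values were 554 to 1049 (median 754) against 56.7 to 82.9 (median 66.7). No blood array reached background, and cerebellum was at least 3.42-fold and 4.16-fold higher (log2 difference, blood minus cerebellum, -3.45 ± 0.15, adjusted p = 1.7e-13, and -3.49 ± 0.18, adjusted p = 1.3e-08). Cxcl17 (mucosal tissues) and Ccl19, the Ccr7 ligand of lymphoid stroma, differed less. Cxcl17 had log2 differences of -0.58 ± 0.16 (adjusted p = 0.0027) and -0.76 ± 0.15 (adjusted p = 0.0011), and Ccl19 of -0.81 ± 0.16 (adjusted p = 2.0e-04) and -0.43 ± 0.10 (adjusted p = 0.0029). Their blood and cerebellum values overlapped in the Fmr1 experiment, and those of Ccl19 also in the Tsc2 experiment. Leaving out the blood arrays with high Alb left 1 blood array in the Tsc2 experiment. The difference there was then -0.68 for Cxcl17 and -0.23 for Ccl19.

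The named pairs of ligand and receptor lay in different tissues or in both. Cxcl12 read 354 to 421 in Fmr1 experiment cerebellum (median 399.8) and 42.9 to 179 in blood (median 80.2), and 360.4 to 455 (median 424) against 58.2 to 118 (median 84.7) in the Tsc2 experiment. Cerebellum was at least 1.90-fold and 2.27-fold higher (log2 -2.32 ± 0.18, adjusted p = 9.2e-10, and -2.31 ± 0.19, adjusted p = 1.0e-06). Its receptor Cxcr4 lay on the other side, with 2012 to 3089.7 in Fmr1 experiment blood (median 2413) against 66.6 to 158 in cerebellum (median 86.0), and 2751 to 4007 (median 3413) against 79.6 to 134 (median 98.9) in the Tsc2 experiment. Blood was at least 10.8-fold and 20.9-fold higher (log2 4.76 ± 0.14, adjusted p = 2.1e-16, and 5.06 ± 0.14, adjusted p = 1.4e-10). For the other receptor of Cxcl12, Ackr3, which takes up the ligand without G protein signalling, cerebellum was higher as for the ligand. Group medians were 235 to 254 in cerebellum and 34.7 to 84.9 in blood (log2 -2.80 and -2.19, adjusted p = 1.5e-08 and 2.4e-05). Ackr3 was above background on no blood array, so these sizes are not exact.

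Cx3cl1 and Cx3cr1 were both above background in cerebellum. Cx3cl1 read 376 to 800.2 in Fmr1 experiment cerebellum (median 486) and 27.9 to 162 in blood (median 79.8), and 532 to 732 (median 634) against 45.0 to 95.1 (median 80.3) in the Tsc2 experiment. The bounds were 2.45-fold and 3.47-fold (log2 -2.63 ± 0.24, adjusted p = 1.1e-08, and -3.12 ± 0.17, adjusted p = 2.6e-08). Cx3cr1 read 322 to 554 in Fmr1 experiment blood (median 463) and 229.7 to 352 in cerebellum (median 242), 1.63-fold higher in blood (log2 0.70 ± 0.13, adjusted p = 8.9e-05). In the Tsc2 experiment it read 241 to 581 (median 493) against 262 to 312 (median 283) and did not pass (log2 0.52 ± 0.23, adjusted p = 0.074). Tsc2+/- mouse 2 (241) and WT mouse 3 (258) again held the lowest blood values. For Ccr2 and its ligand Ccl2, the receptor was above background on all 16 blood arrays and on no cerebellum array, while Ccl2 lay close to background in both tissues (median 201 in Fmr1 experiment blood and 218 in cerebellum).

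**Figure D3:**
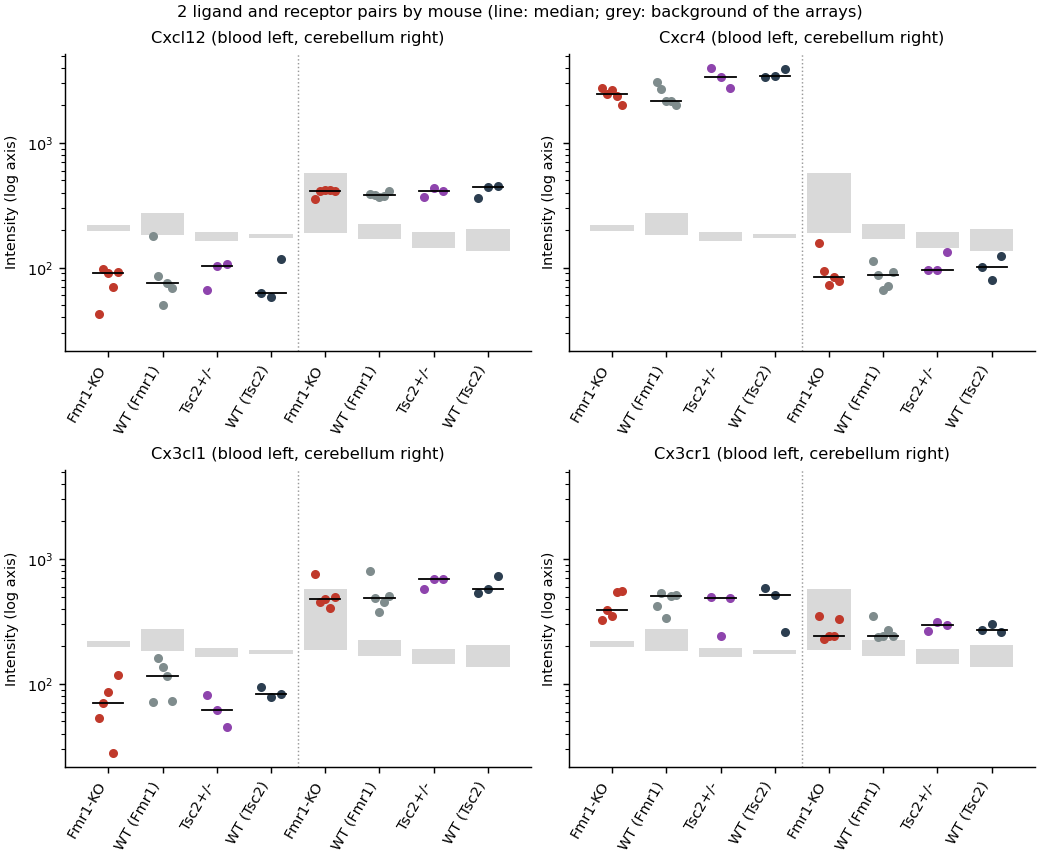
Intensity of Cxcl12, Cxcr4, Cx3cl1 and Cx3cr1 on each array by group (log axis), blood left and cerebellum right of the dotted line, with the group median as a line and the background of the group's arrays as a grey band. Cxcl12 and Cx3cl1 lie under the band in blood and, in the 3 groups other than Fmr1-KO, above it in cerebellum, Cxcr4 the other way round, and Cx3cr1 lies above it on most arrays of both tissues. The tall band of Fmr1-KO cerebellum comes from the array of mouse 1 (577) and takes in most points there.

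Other genes of the chemokine system were read from a list of atypical receptors, chemokines with older names and signalling genes, of which 40 were measured. In the Fmr1 experiment 25 of 40 were higher in blood (20% of all probe sets) and 10 higher in cerebellum (51.8%). The Tsc2 experiment gave 28 (26.4%) and 11 (31%). In both, 24 were higher in blood and 10 in cerebellum, and none was called in opposite directions. Those higher in blood included Rgs18, a brake on G protein signals in platelets (fitted log2 8.05 and 6.58), Cd74, which binds the cytokine Mif (6.71 and 7.50), and the platelet chemokines Ppbp (7.42 and 6.80) and Pf4 (7.59 and 5.92). All 4 were above background on all 16 blood arrays and on no cerebellum array, so these sizes have no exact order. Those higher in cerebellum included the inhibitory G protein subunit Gnai1 (-6.97 and -7.06), the receptor kinase Grk3 (-2.77 and -2.78) and Rarres2, the precursor of the attractant chemerin (-5.16 and -1.81). In blood Gnai1 was above background on no array, Rarres2 on 2 and Grk3 on 3, so these sizes are not exact either. For Rarres2 the -5.16 includes a reading of 0.00975 in Fmr1-KO blood, taken to log2 with no offset. The leukocyte motility genes Dock2 (log2 5.25 and 6.29) and Rac2 (5.48 and 6.36), which turn receptor signals into movement, followed the receptors. Both were above background on no cerebellum array.

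WT blood differed between the experiments in many probe sets, and members passed at a share near that of all probe sets. In blood alone, 7 of 52 members passed an unadjusted p under 0.01 (12% of all probe sets did). They were 6 receptors that were higher (9.43% of all probe sets) and the ligand Cxcl5 that was lower (2.55%) in WT mice of the Tsc2 experiment, and 9 of 52 members had groups that did not overlap, a smaller share than over all probe sets (24%). None passed an adjusted p under 0.05 in blood, where 14 members had an unadjusted p under 0.05 (29% of all probe sets). In cerebellum no member passed 0.01 (1.29% of all probe sets did), 7 had an unadjusted p under 0.05 (8.19%), and only Cxcl16, near background, had groups without overlap (4.98% of all probe sets). Over both tissues, with tissue in the model, 3 members passed 0.01 (7.89% of all, 5.93% higher and 1.96% lower): Ccl5 was higher in WT mice of the Tsc2 experiment (log2 0.56 ± 0.16), and Cxcl10 (-0.45 ± 0.12) and Cxcl5 (-0.81 ± 0.22) were lower, each with adjusted p = 0.11. With the mouse as a random block, Cxcr6 passed 0.01 as well, which made 4. Cxcl10 and Cxcl5 were near background in both tissues. Leaving out the 2 blood arrays with high Alb left 1 blood array of the Tsc2 experiment. The log2 differences were then 0.58 for Ccl5, -0.47 for Cxcl10 and -0.46 for Cxcl5.

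Cxcr6, Ccr9, Ccr4 and Cxcl13 are described in full because of their values. Cxcr6 read 182, 165, 212, 167 and 190.4 in the 5 WT mice from the Fmr1 experiment and 2755, 2139.8 and 689 in the 3 from the Tsc2 experiment. All 3 lay above all 5, with a log2 difference of 3.13 ± 0.42 (limma p = 1.1e-04, adjusted p = 0.055; two-sided exact permutation p = 0.018, the smallest that 3 against 5 can give). The Tsc2+/- mice read alike, with 3339.6, 891 and 2021, and the Fmr1-KO mice read 96.2 to 189. Ccr9, the receptor that homes T cells and thymocytes to gut and thymus, read 371, 240.2, 348, 346 and 296 against 938, 2079.6 and 8243 in the same groups (log2 3.00 ± 0.62, adjusted p = 0.068, exact permutation p = 0.018). In Tsc2+/- blood it read 1225, 2649.8 and 1009, so that the highest values belonged to the mice with high Rag1, WT mouse 3 (8243) and Tsc2+/- mouse 2 (2649.8).

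Ccr4, a receptor of T helper 2 cells, read 129, 72.5, 81.9, 106 and 111 against 209, 281 and 681 in the WT mice, and was above background on all 3 of the latter arrays and on none of the former, a difference of at least 1.66-fold (log2 1.80 ± 0.39, adjusted p = 0.068, exact permutation p = 0.018). Again WT mouse 3 was the brightest. Cxcr3, the receptor of Cxcl9, Cxcl10 and Cxcl11 on activated T cells, read 321, 349, 289, 278 and 332 against 1197, 922 and 401 (log2 1.29 ± 0.34, adjusted p = 0.073, exact permutation p = 0.018). Here the order of the Tsc2 experiment mice was reversed, with WT mouse 3 lowest. Ccr2 read 364, 400.0, 342, 327 and 349.9 against 616, 679 and 573 (log2 0.80 ± 0.12, adjusted p = 0.064, exact permutation p = 0.018), and Cxcr5 had a mean of 1210.4 against 2162 (log2 0.82 ± 0.22, adjusted p = 0.074, exact permutation p = 0.036).

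The marker genes of blood cells differed along with these receptors, and the part of cell makeup in the results was not tested. The summed T cell markers (7 measured genes, 6 of them above background on every Fmr1-KO and WT array of the Fmr1 experiment) read 10966 to 12946 in WT blood of the Fmr1 experiment and 21257 to 43035 in that of the Tsc2 experiment. The NK cell markers (5 genes) read 1912 to 3389 and 4181 to 8210, while the monocyte markers (4 genes) overlapped, 2253 to 2809 and 1970 to 3169. The red cell markers (3 genes) were lower, 40812 to 47997 against 25898 to 35940, and the immature thymocyte markers higher, 2589 to 3069 against 4463, 8490.0 and 33922, in both cases without overlap. The single WT mouse of the Tsc2 experiment without high Alb, WT mouse 1, gives values free of that signal. As 1 mouse it allows no test. It exceeded all 5 WT mice of the Fmr1 experiment for Cxcr6 (2755 against 212 or less), Cxcr3 (1197 against 349 or less), Ccr9 (938 against 371 or less), Ccl5 (5761 against 3361 or less) and Ccr2 (616 against 400.0 or less). Its Ccr4 (209) also did, close to its array's background of 184, while its Cxcr5 (1549) lay among them. Its own T cell marker sum was 21257 and its NK cell sum was 8210.4, both above all Fmr1 experiment blood arrays, and its Rag1 was 101.

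Cxcl13, the B cell attractant that Cxcr5 binds, followed the odd arrays instead. It read 70.0 to 155 over the 10 blood arrays of the Fmr1 experiment, all under background, and 871, 2266 and 8494 in Tsc2+/- mice and 125, 3506 and 1779 in WT mice of the Tsc2 experiment. It was thus above background on the 5 arrays with high Alb and Prg4, and under it on that of WT mouse 1. The WT mice of the Tsc2 experiment, with 2 of 3 arrays above background, had a geometric mean of 920 against 110 in WT mice of the Fmr1 experiment (limma adjusted p = 0.099, exact permutation p = 0.054). This size is neither exact nor a bound, because WT mouse 1 lay under background, within the 76.0 to 155 of those mice. The part of whatever gave Alb and Prg4 was not tested.

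**Figure D4:**
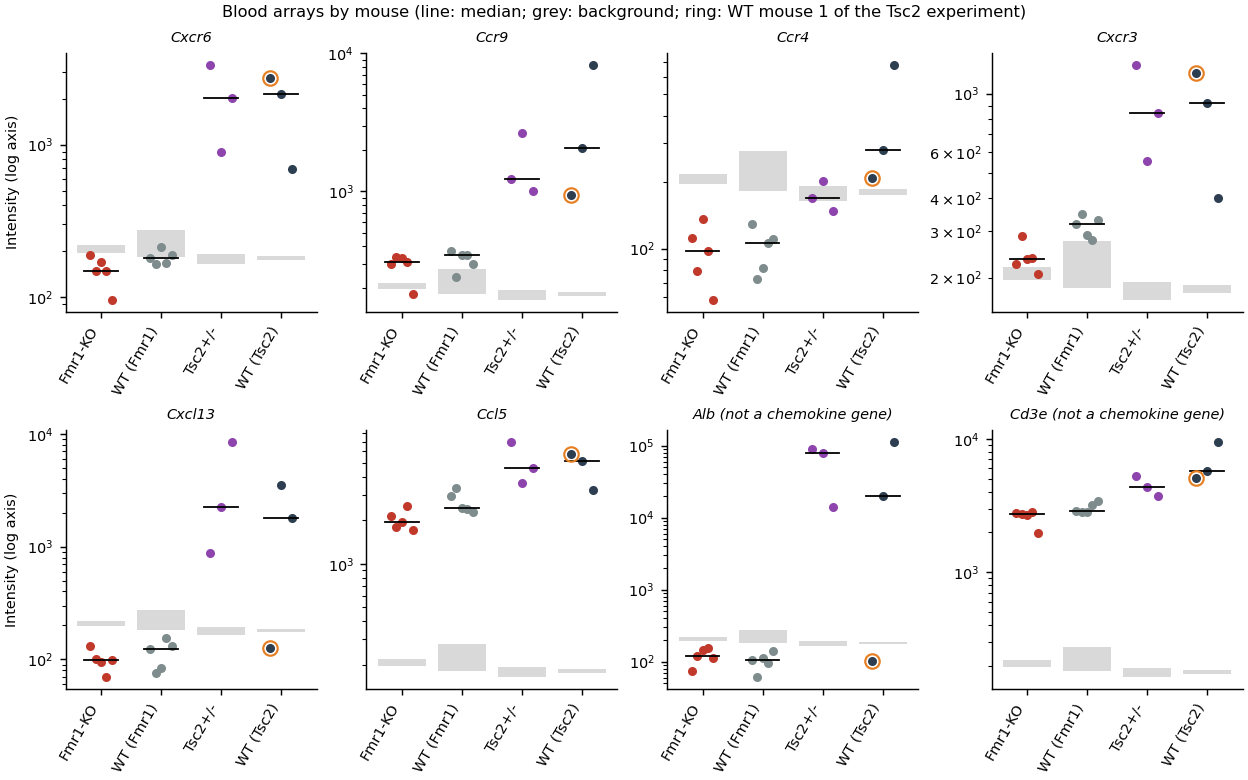
Intensity in blood of 6 members and of Alb and Cd3e, a T cell gene, by mouse (log axis), with group medians as lines, array background in grey and WT mouse 1 of the Tsc2 experiment ringed. Cxcr6, Ccr9, Cxcr3 and Ccl5 of the ringed mouse lie above all Fmr1 experiment mice, while its Cxcl13 and Alb lie under background.

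Whether the tissue difference itself differed between the WT mice of the experiments was tested by an interaction term. Only Cxcr6 (log2 3.36 ± 0.48, adjusted p = 0.011) and Ccr4 (2.25 ± 0.44, adjusted p = 0.045) passed, both in the direction of a larger excess in blood in the Tsc2 experiment (0.43% of all probe sets passed in this direction). Ccr9 followed (3.39 ± 0.75, adjusted p = 0.058). The calls of Cxcr6 and Ccr4 were lost on leaving out some single mice, with adjusted p up to 0.13 and 0.22. Leaving out the blood arrays with high Alb left 1 Tsc2 experiment blood array, which allows no test. The sizes were then 4.15 for Cxcr6, 2.38 for Cxcr3 and 1.53 for Ccr4. The genes beside Ccr9 and Cxcr6 gave smaller values. Ccr9, Cxcr6, Xcr1, Ccr1, Ccr1l1, Ccr3 and Ccr2 start within a stretch of mouse chromosome 9, in this order, from 123766961 to 124102182 in GRCm38.p6. In WT blood their log2 differences were 3.00, 3.13, -0.20, 0.01, -0.09, -0.12 and 0.80.

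In Fmr1-KO mice, few chemokine genes differed and none passed correction. Over both tissues no member passed an unadjusted p under 0.01 (0.304% of all probe sets did) or under 0.05 (2.73%). In blood 1 member passed 0.01 (0.582% of all): Cxcr3 read 224, 287, 235, 237 and 206 in Fmr1-KO mice and 321, 349, 289, 278 and 332 in WT mice. The groups overlapped only between Fmr1-KO mouse 2 and WT mouse 4, and the difference was -0.40 ± 0.11 on the log2 scale (p = 0.0060, adjusted p = 0.96; two-sided exact permutation p = 0.016). With each mouse left out in turn it ran from -0.47 to -0.35, and p lay between 0.012 and 0.017 without Fmr1-KO mouse 1, 3, 4 or 5 or WT mouse 1, 2 or 5.

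Among the members above background in blood, Cxcr3 and Ccl5 had the largest differences. Ccl5 read 2127, 1794, 1935, 2506 and 1702 against 2938, 3361, 2427, 2408 and 2300.3 (log2 -0.42 ± 0.15, adjusted p = 0.96, exact permutation p = 0.032). The summed NK cell markers were also lower, with 1267 to 2444 in Fmr1-KO and 1912 to 3389 in WT blood, and the T cell sums were 8084 to 11322 and 10966 to 12946. Their part in the lower Cxcr3 and Ccl5 was not tested. No member had groups without overlap in blood (0.562% of all probe sets) or cerebellum (0.357%).

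In Fmr1-KO cerebellum no member passed 0.01 (0.197% of all probe sets did), and 2 passed 0.05 (1.66%), Ccl3 (log2 0.75 ± 0.25, exact permutation p = 0.024) and Cxcr5 (1.08 ± 0.45, p = 0.056), both under background on all 16 cerebellum arrays. The members above background with the largest differences were Ccl19 (0.22 ± 0.19, exact permutation p = 0.31) and Cxcl14 (-0.19 ± 0.18, p = 0.32). For Ccl19 the array of mouse 1 read 518, the highest of all cerebellum arrays, and without it the difference was 0.10 ± 0.17. Cxcl14 read 637, 909, 696, 592 and 536 against 982, 675, 722, 579.6 and 888. The sign of the differences leaned one way, with 47 of 52 members higher in Fmr1-KO cerebellum (41 after quantile normalisation within tissue) against 53.8% of all probe sets, and the median member was 0.14 higher. This rested on 1 array: without Fmr1-KO mouse 1, the array with the raised background, 26 of 52 were higher and the median was 0.00. In the ligand and receptor pairs, Cxcl12 (0.07 ± 0.09), Cx3cl1 (0.00 ± 0.22) and Cx3cr1 (0.06 ± 0.17) had differences within their standard errors. In blood Cxcr4 (0.02 ± 0.15) had one within its own as well.

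In Tsc2+/- blood the members above background with the largest differences were Ccr1 and Ccl9, both of myeloid cells, and neither passed the threshold. In blood no member passed an unadjusted p under 0.01 (0.298% of all probe sets did) and 2 passed 0.05 (2.14%), Ccr8 and Cxcl15, both near background. Ccr1 read 837, 877 and 2354 in Tsc2+/- mice and 673, 702 and 476 in WT mice, without overlap (log2 0.98 ± 0.45, p = 0.074, adjusted p = 1.0; exact permutation p = 0.10, the smallest that 3 against 3 can give). Ccl9 read 2309, 7928 and 8773 against 1711, 3558 and 3606 (log2 0.96 ± 0.61, exact permutation p = 0.30). Tsc2+/- mouse 3, the highest for Ccr1 and Ccl9, also had the highest Prg4 of all mice (12111). Its summed monocyte markers (5708) were the highest of all blood arrays, against 1970 to 3457 in the other mice of the Tsc2 experiment. Its neutrophil sum (22434) was the highest of that experiment. The part of the Prg4 source and of these sums was not tested. Ccl6 (2062, 4146 and 4795 against 1791, 2544 and 1972) and Ccr2 (659, 1382 and 1088 against 616, 679 and 573) differed by log2 0.73 ± 0.36 and 0.68 ± 0.30 (exact permutation p = 0.20 for each). Of like size were Ccr9, with 1225, 2649.8 and 1009 against 938, 2079.6 and 8243 (-0.76 ± 0.85, and 0.09 without WT mouse 3), and Cxcr2, with 2164, 365 and 3849 against 1979, 1281 and 267 (0.72 ± 1.13, and -0.14 without WT mouse 3). All 3 Tsc2+/- blood arrays had high Alb, so no fit without such arrays could be made. With each mouse left out in turn, the log2 difference ran from 0.49 to 1.24 for Ccr1, lowest without Tsc2+/- mouse 3, and from 0.60 to 1.57 for Ccl9, highest without Tsc2+/- mouse 1. In all 4 members, Ccr1, Ccr4, Ccr8 and Cxcl15, had groups that did not overlap in blood, against 6.38% of all probe sets. Of the receptors that set the WT mice of the experiments apart, Cxcr6 (0.19 ± 0.70) and Cxcr3 (0.15 ± 0.51) differed by less than their standard errors.

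In Tsc2+/- cerebellum no member passed 0.01 (1.12% of all probe sets did) and 1, Ccr6, passed 0.05, as 4.94% of all did (log2 0.46 ± 0.15, adjusted p = 0.93), at 29.4 to 48.0 on all 6 arrays, far under background. Ccr6 and Ccl25, 2 of 52, had groups that did not overlap (10.3% of all probe sets). By sign, 37 of 52 members were higher in Tsc2+/- cerebellum, against 45.7% of all probe sets, and 34 to 42 with each mouse left out. Over both tissues 41 of 52 were higher, against 54.1% of all, and 31 to 42 with each mouse left out. Most members were near background in cerebellum, and this lean was not tested. Of the members above background, Ccl2 had the largest difference, with 229.7, 239 and 188 in Tsc2+/- mice and 208, 149 and 149 in WT mice (0.39 ± 0.19, exact permutation p = 0.20), and Cxcl14 followed, with 554, 886 and 1049 against 603, 622 and 958 (0.17 ± 0.30, p = 0.80). The lowest 3 of these arrays, Tsc2+/- mouse 1 and WT mice 1 and 2, also had the lowest summed choroid plexus markers (4 genes), 806, 6975 and 577 against 14156, 15236 and 14500 on the other 3, and the part of these in Cxcl14 was not tested. Over both tissues only Cxcl15, a neutrophil attractant best known from lung, passed 0.01 (0.436% of all probe sets did). It read 51.1, 59.7 and 58.9 in Tsc2+/- blood against 42.3, 46.4 and 36.0, and 55.2, 46.2 and 38.3 in cerebellum against 44.8, 28.4 and 31.3 (log2 0.44 ± 0.14, adjusted p = 1.0). All these values lay under background. When the 5 blood arrays with high Alb were left out, no Tsc2+/- blood array remained, and the difference was 0.43.

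**Figure D5:**
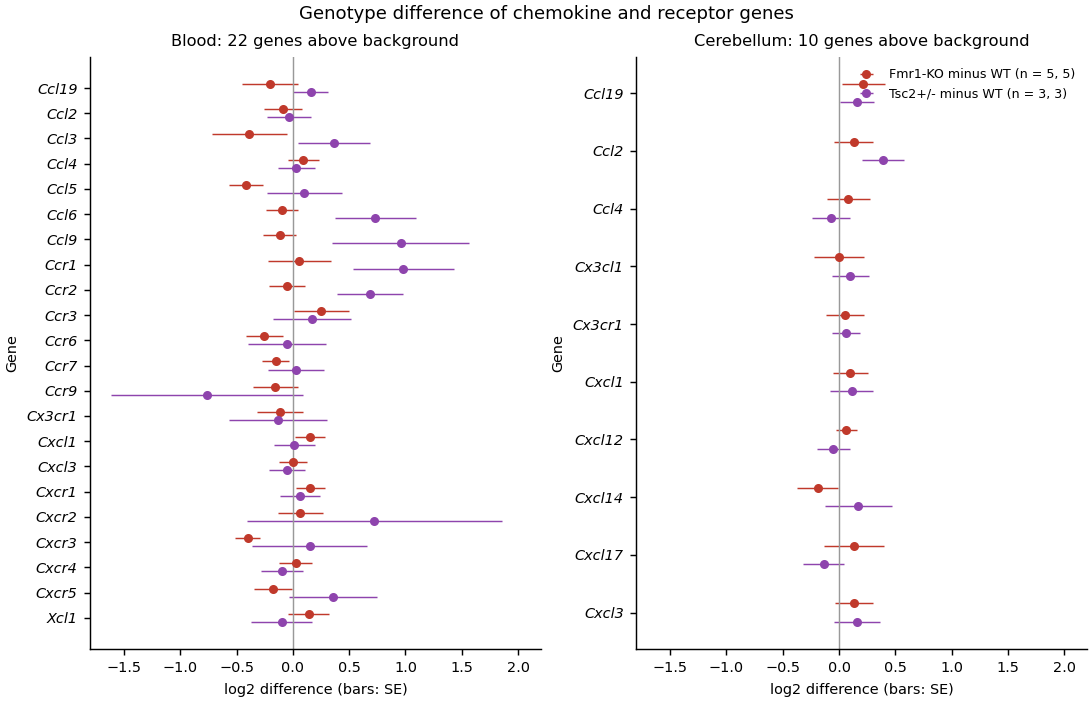
Log2 difference between mutant and WT mice with its standard error for the 22 members above background in blood and the 10 above background in cerebellum, in Fmr1-KO (red) and Tsc2+/- mice (purple). In cerebellum the largest difference is that of Ccl2 in Tsc2+/- mice (0.39), and in blood Cxcr3 and Ccl5 are lowest in Fmr1-KO mice while Ccr1 and Ccl9 are highest in Tsc2+/- mice.

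Genotype effects were not shown to differ between tissues or models. The interaction of genotype with tissue passed an adjusted p under 0.05 for no member in the Fmr1 experiment (0.00844% of all probe sets) or the Tsc2 experiment (0.00562%), and neither did that of genotype with model in blood (0.00281%) or in cerebellum (0.00844%). At an unadjusted p under 0.05 by limma there were 3 members for tissue in the Fmr1 experiment (3.28% of all probe sets), 3 in the Tsc2 experiment (3.49%), 2 for model in blood (3.63%) and 1 in cerebellum (2.23%). Ccl3 came nearest in the Fmr1 experiment (log2 effect in blood minus effect in cerebellum -1.14 ± 0.43) and Ccr8 in the Tsc2 experiment (-1.48 ± 0.49). Between models in blood it was Ccl6 (Tsc2 minus Fmr1 effect 0.83 ± 0.34) and Ccr2 (0.74 ± 0.32). Of these, Ccr8 was above background on no array of either tissue, and Ccl3 on no cerebellum array. None of the 40 other genes of the chemokine system passed 0.01 by genotype in either tissue or over both.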

How the data were processed

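RNA of blood and cerebellum was hybridised to Affymetrix Mouse Gene 1.0 ST arrays. Per the labels and the methods, the authors normalised the probes by quantiles over all arrays and summarised them with PLIER in Affymetrix Power Tools, and the deposited values are linear intensities of 35556 probe sets on 32 arrays. These were read as deposited, so a change shared by all genes is lost. Names came from the platform annotation: 21789 probe sets had 1 symbol, 1621 had several and 12146 had none, and all 52 members matched a current symbol. Values were taken to log2 with no offset and fitted with limma 3.58.1 (lmFit and eBayes, R 4.3.3) over all probe sets, with Benjamini-Hochberg adjustment over all of them, after the code was tested on simulated data. Tissue models held genotype, and genotype models over both tissues held tissue. Tissue differences and interactions were called at an adjusted p under 0.05. Genotype and WT differences were called at an unadjusted p under 0.01, the threshold the paper used for its linear model. The number of arrays limits the precision.

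The labels tie the blood and cerebellum arrays of a group to the same mouse by its number. Deviations from the group means correlated by -0.070 to 0.079 between them. Knockout and WT mice share only a number. The members and lists were chosen with earlier results of these data known. Members named in full were the 5 with the largest tissue difference each way among those called in both experiments, those with p under 0.01 by genotype or between WT mice, the 2 largest above background in each comparison within a tissue, and set ligand and receptor pairs. Cxcr6, Ccr9, Ccr4 and Cxcl13 were added after their values were seen, as were the marker lists for liver, thymocytes and cavity macrophages. Alternatives were log2 of the intensity plus 16, quantile normalisation again within tissue, median centring, leaving out dim probe sets and an intensity trend. Others were the mean of a gene's probe sets, mouse or replicate number as a block, Welch's t-test, other background levels and each mouse left out. Promoter sequences are from RefSeq (GRCm38.p6).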

Additional observations from a re-analysis of the deposited data

Results flagged for a closer look

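In 3 of the 40 pairs of gene and group examined for a mouse apart from the other 4, 1 mouse lay far from the rest, and chance gives about 1 in 20. In Fmr1-KO cerebellum, mouse 1 read 760 for Cx3cl1 against 406 to 497 in the other mice, and 354 for Cxcl12 against 409 to 421, high for the one and low for the other on the array with the raised background. In Fmr1-KO blood, mouse 5 read 1562 for Cxcr2 against 2045 to 2189. Groups of 3 mice were not examined.

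The excess of Cxcr6 and Ccr4 in blood over cerebellum differed between the WT mice of the experiments, by log2 3.36 (adjusted p = 0.011) and 2.25 (adjusted p = 0.045), larger in the Tsc2 experiment. Cxcr6 and Ccr4 read 2755 and 209 in blood of the WT mouse without high Alb. In blood of the WT mouse with the highest Rag1 they read 689 and 681. These are values of 1 array each, and the part of the Alb or Rag1 source was not tested. Both calls were lost on leaving out some single mice.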

How the results depend on the processing

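No called member changed sign under the alternatives run for it. Members with a higher mean in Fmr1-KO mice over both tissues were 35 of 52, and 22 without Fmr1-KO mouse 1. The number of members higher in cerebellum in the Fmr1 experiment was 13 and fell to 5 when dim probe sets were left out before the fit. That of the Tsc2 experiment was 6 and rose to 11 after quantile normalisation within tissue and 10 after median centring, which moved the median difference of all probe sets from -0.03 to -0.32 and -0.25. The single genotype call over both tissues in the Tsc2 experiment was 0 with 16 added, after quantile normalisation, without dim probe sets and with an intensity trend. Leaving out the blood arrays with high Alb, chosen after seeing the data, left no Tsc2+/- blood array, so its count is not given. In Fmr1-KO blood the 1 call became 2 with an intensity trend (Cxcr3 and Ccl5) and 0 with the replicate number as a block (Cxcr3), and in Fmr1-KO cerebellum the block gave 1 call (Ccl3) against 0 without it. In Tsc2+/- blood 1 call, Ccr8, arose from quantile normalisation or centring, and in Tsc2+/- cerebellum 1, Cxcr3, from quantile normalisation. Between WT mice the 3 calls became 5 with 16 added or after quantile normalisation, 7 in blood alone and 0 in cerebellum alone, and the 2 interaction calls became 4 with 16 added. In blood, 16 members were near background by vomeronasal receptors and 18 by the rule of every array, against 30. The number there ran from 16 to 36 over the alternatives, and in cerebellum it ran from 28 to 46 around 42.

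With each mouse left out in turn, the counts ran from 22 to 24 (higher in blood) and 11 to 13 (higher in cerebellum) in the Fmr1 experiment, and from 22 to 28 and 5 to 7 in the Tsc2 experiment. Genotype calls over both tissues ran from 0 to 0 and 0 to 1, those in Fmr1-KO blood and cerebellum from 0 to 1, in Tsc2+/- blood from 0 to 2 and in Tsc2+/- cerebellum from 0 to 1. The WT calls ran from 2 to 7 and the interaction calls from 0 to 6. Cxcr6 lost its interaction call without WT mouse 2 or 4 of the Fmr1 experiment or WT mouse 2 of the Tsc2 experiment (adjusted p = 0.056 to 0.13), and Ccr4 without any of 6 of the 8 WT mice (0.076 to 0.22). Mutant and WT mice with the same number correlated by -0.027 to 0.024 in Fmr1 blood and by -0.014 to 0.228 in Fmr1 cerebellum. In the Tsc2 experiment they correlated by -0.070 to 0.136 in blood and by -0.090 to 0.159 in cerebellum. Blood and cerebellum of a mouse taken as a random block added Cxcr6 to the WT calls (4 against 3). This changed no other genotype or WT call over both tissues. With the mouse as a fixed block, 23 members were higher in blood and 12 in cerebellum (Fmr1 experiment), against 24 and 5 (Tsc2 experiment). Welch's t-test, which the paper used post hoc within a tissue, gave 1 call in Fmr1-KO blood (Cxcr3) at an unadjusted p under 0.01. It gave 0 in the other 3 comparisons of genotype within a tissue, and 0 in all 4 after Benjamini-Hochberg adjustment.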
